A study of Caenorhabditis elegans with 2 samples.

Results

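The genes described here are the nuclear hormone receptor genes of *Caenorhabditis elegans* whose names begin with nhr-. Members were taken from the Ensembl gene annotation of assembly WBcel235 by name and protein-coding type, and nhr-23 and nhr-25 were left out. This gave 267 members among 19973 coding genes on the nuclear chromosomes. The data are lists of regions bound by ELT-3, a GATA-type zinc-finger factor of the epidermis, from chromatin immunoprecipitation and sequencing (ChIP-seq) of whole larvae in the L1 stage. All larvae were of strain OP75, which carries the unc-119(ed3) mutation on chromosome III and the transgene wgIs75, a tagged copy of elt-3 with GFP, and both sexes were pooled. The 2 libraries, biological replicates 1 and 3, form 1 group, so there was no other genotype, age or treatment to compare them with. Per the labels, worms of replicate 3 came from the submitting laboratory and those of replicate 1 from the CGC, a strain collection. Replicate 3 was sonicated with a microtip, and a fragment size range is given for replicate 1 only, so the libraries differ in worm source and may differ in fragmentation. The labels call the antibody elt-3 but also describe a GFP-FLAG tag, so which part of the fusion was precipitated is not settled. Age is given as unknown. The fusion comes from an inserted transgene, so its level may differ from that of native ELT-3, and whole larvae do not show in which tissue a region was bound.

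Nuclear hormone receptors are transcription factors with a zinc-finger domain that binds DNA and a second domain that can bind a small lipid-like ligand. Nematodes carry far more of these genes than insects or mammals. Most of them descend from duplications of an ancestor resembling vertebrate HNF4 genes, and many of the copies lie on chromosome V. A small part of the family has clear counterparts across animals. Members with known roles act in fat metabolism, vitamin-dependent breakdown of propionate, responses to toxins, low oxygen and bacteria, and the timing of development. GATA factors bind the sequence WGATAR, where W is A or T and R is A or G.

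Peaks were assigned by the summit of a region, its position of strongest signal. A window reached from 1000 bp before the 5′ end of a gene, as annotated, to 500 bp inside it, and a summit in that window gave the gene a peak. The sequences within 50 bp of 8 such summits are given first, because the presence or absence of a GATA site separates them. Each is 101 bases of assembly WBcel235 (ce11), read 5′ to 3′ on the strand of the gene. Capitals mark WGATAR on either strand, or the core GATAA on either strand where the flanking letter breaks WGATAR. The first 6 hold WGATAR and are ordered by the signal of the peak. They are not the 6 strongest with a site, since stronger ones such as that at nhr-3 are not printed. Nor do the 8 reflect the share over all 30 thresholded summits, of which 16 held WGATAR. The last 2 come from nhr-68, whose peak had the highest signal in a 5′ window of the family, and from nhr-57, and neither holds WGATAR.
nhr-80, chrIII:15388-15488, minus strand: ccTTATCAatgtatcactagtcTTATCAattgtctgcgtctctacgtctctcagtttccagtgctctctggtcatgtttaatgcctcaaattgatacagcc
nhr-119, chrII:2800919-2801019, minus strand: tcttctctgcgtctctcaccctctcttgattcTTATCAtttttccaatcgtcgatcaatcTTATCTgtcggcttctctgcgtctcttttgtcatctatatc
nhr-178, chrV:1607960-1608060, minus strand: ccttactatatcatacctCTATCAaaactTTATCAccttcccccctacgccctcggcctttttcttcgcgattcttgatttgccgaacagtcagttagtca
nhr-132, chrV:534340-534440, plus strand: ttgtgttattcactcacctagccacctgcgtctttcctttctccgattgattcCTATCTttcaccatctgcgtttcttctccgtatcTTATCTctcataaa
nhr-43, chrIV:11899462-11899562, plus strand: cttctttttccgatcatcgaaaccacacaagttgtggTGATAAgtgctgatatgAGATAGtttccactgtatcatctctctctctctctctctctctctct
nhr-42, chrV:6998384-6998484, plus strand: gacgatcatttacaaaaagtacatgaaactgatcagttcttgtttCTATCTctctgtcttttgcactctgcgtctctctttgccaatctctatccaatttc
nhr-68, chrV:11572962-11573062, plus strand: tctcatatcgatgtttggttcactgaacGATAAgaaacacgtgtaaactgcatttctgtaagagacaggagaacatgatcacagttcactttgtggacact
nhr-57, chrV:4131734-4131834, plus strand: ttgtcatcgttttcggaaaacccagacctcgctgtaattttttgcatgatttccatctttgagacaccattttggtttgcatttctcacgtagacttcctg

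Peaks that passed the submitters' reproducibility threshold lay at 29 of the 267 receptor genes. That is 10.9% of them (exact binomial 95% interval over genes 7.40 to 15.2), beside 9.38% of the 19706 other coding genes. The interval of the receptors includes the share of the other genes. In the pooled list, called on both libraries together, which holds 30000 candidate regions without a threshold, 123 receptor genes had a summit (46.1%, interval 39.97 to 52.2), beside 41.5% of other genes. The replicate 1 list gave 128 receptor genes (47.9%, interval 41.8 to 54.1), also beside 41.5%. The replicate 3 list, of 24854 regions, gave 88 (33.0%, interval 27.4 to 38.95), beside 35.5%, so the receptors stood above the other genes in the replicate 1 list and below them in that of replicate 3. No summit of any list lay at 103 of the receptor genes. These intervals treat genes as independent, which tandem copies are not, and no test was made of any of these differences. Read counts are not part of these lists, and sequencing depth is therefore not known.

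The receptor genes were unevenly spread over the chromosomes, and so were their peaks. Chromosome V holds 167 of the 267 (62.5%), beside 24.5% of the other coding genes. Thresholded peaks lay at 11 of those 167 (6.59%, interval 3.33 to 11.5), next to 6.51% of the other genes of chromosome V. On the remaining chromosomes they lay at 18 of 100 receptor genes (18%, interval 11.03 to 26.9), next to 10.3% of other genes there. Had the receptors of each chromosome carried thresholded peaks as often as its other genes, 20.9 would have had one in place of 29. The same count was 96.7 in place of 123 in the pooled list and 95.4 in place of 128 in that of replicate 1. In the replicate 3 list it was 89.1 in place of 88, so there the receptors did not stand above the other genes. On X, 6 of 22 receptor genes had a thresholded peak (27.3%, interval 10.7 to 50.2; other genes 9.01%). On IV it was 6 of 33 (18.2%, interval 6.98 to 35.5; other genes 7.73%), and on II 4 of 15 (26.7%, interval 7.79 to 55.1; other genes 8.21%). On chromosome I only nhr-69 of 22 had one (4.55%, interval 0.115 to 22.8), below the 14.6% of other genes, and on III only nhr-80 of 8 (12.5%, other genes 12.96%). With so few receptor genes on I to IV and X, the intervals of I, II, III and IV include the share of the other genes and that of X does not. In the replicate 3 list alone, 34 of the 100 receptors away from V had a summit (34%, interval 24.8 to 44.2), next to 36.7% of other genes. Among the 2940 strongest regions of that list it was 9 of 100, next to 6.49%. In the pooled list it was 50 of 100, next to 44.7%. The receptors away from V were thus above the other genes in the pooled list and in the strongest regions of replicate 3, and below them in the whole replicate 3 list.

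**Figure D1:**
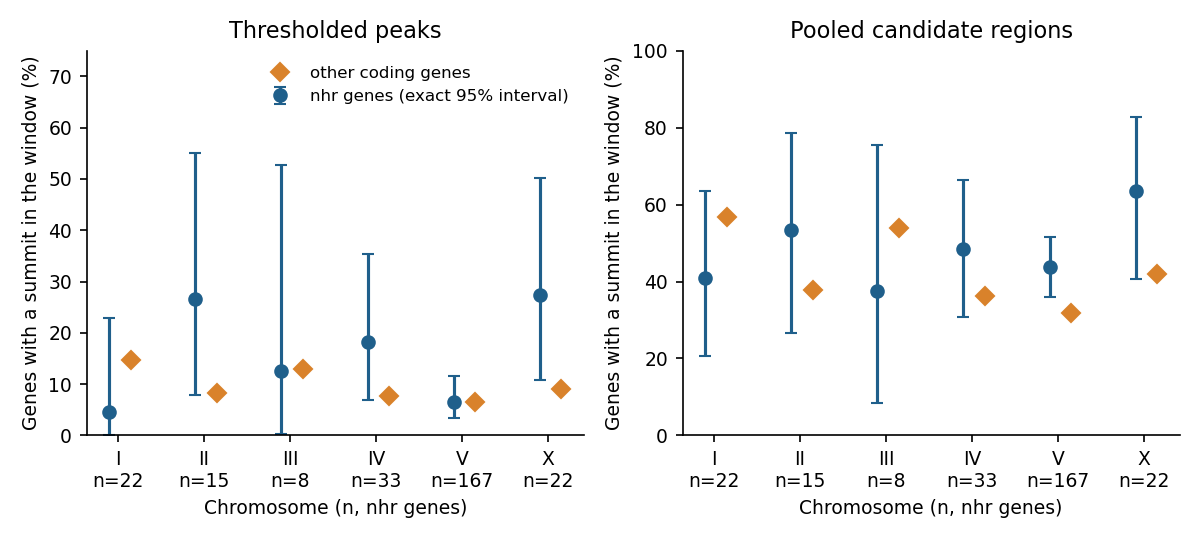
Percent of nuclear hormone receptor genes (circles, with exact binomial 95% intervals over genes) and of other coding genes (diamonds) with a summit in the window, by chromosome, for thresholded peaks (left) and pooled candidate regions (right). On chromosome V the thresholded shares are 6.59% and 6.51%, while on II, IV and X the circles lie above the diamonds and on I below.

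In the pooled and replicate 1 lists the receptors on V stood further above the other genes of V than in the thresholded list. In the pooled list 73 of the 167 receptors on V had a summit (43.7%, interval 36.1 to 51.6), next to 31.7% of the other genes of V. In the replicate 1 list it was 75 (44.9%, interval 37.2 to 52.8; other genes 30.8%), and in the replicate 3 list 54 (32.3%, interval 25.3 to 39.997; other genes 31.6%). Receptor genes on X had the highest shares in these 3 lists, as in the thresholded list. In the pooled list it was 14 of 22 (63.6%, interval 40.7 to 82.8, other genes of X 41.9%). In replicate 1 it was 18 (81.8%, interval 59.7 to 94.8, other genes 41.7%), and in replicate 3 it was 11 (50%, interval 28.2 to 71.8, other genes 36.4%). The pooled and replicate 3 intervals include the share of the other genes, and that of replicate 1 does not. Those on I were below the other genes of that chromosome in each list, with 9 of 22 in the pooled list (40.9%, other genes 56.8%).

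Along chromosome V the receptors with peaks lay in the left and middle parts. In the first 5 Mb, 5 of 74 receptor genes had a thresholded peak (6.76%, other genes 3.80%), and between 5 and 10 Mb 4 of 29 did (13.8%, other genes 8.26%). Between 10 and 15 Mb it was 2 of 16 (12.5%, other genes 10.8%). Between 15 and 20 Mb none of 48 had one, where 2.95% of the other genes did. In that last stretch 11 of the 48 receptors (22.9%) had a pooled candidate region, next to 24.1% of other genes, while in the first 5 Mb 39 of 74 did (52.7%, other genes 31.0%).

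Receptor genes that stand apart from other members carried thresholded peaks at a higher share than those in clusters, most of which lie on V. A second member had its 5′ end within 10 kb of 150 of the 267, and 8 of these had a thresholded peak (5.33%, interval 2.33 to 10.2). Of the 117 with no member that near, 21 had one (17.9%, interval 11.5 to 26.1), beside 9.38% of the other coding genes. Away from V the counts were 1 of 29 (interval 0.0873 to 17.8) and 17 of 71 (23.9%, interval 14.6 to 35.5). On V they were 7 of 121 (5.79%, interval 2.36 to 11.6) and 4 of 46 (8.70%, interval 2.42 to 20.8). The intervals of the 2 groups overlapped on V and away from V, but not over all 267. In the pooled list the order on V was the reverse, with 44.6% in clusters and 41.3% apart, while away from V it was 24.1% and 60.6%. The free sequence upstream also differed between chromosomes. The median gap from the 5′ end to the next coding gene upstream was 3424 bp for receptors away from V, 1033 bp for those on V and 930 bp for the other coding genes. With a gap of at least 1000 bp, 16 of 80 receptors away from V had a peak (20%, other genes 8.33%), and on V 4 of 87 (4.60%, other genes 4.52%). With a shorter gap it was 2 of 20 away from V (10%, other genes 12.1%) and 7 of 80 on V (8.75%, other genes 8.31%). The share was thus higher with the longer gap for receptors away from V, and lower with it for receptors on V and for the other genes of either set. The part of clustering and of the gap in the difference between chromosomes was not tested.

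Copies that are near-identical in sequence could take or lose reads, depending on how reads with several matches were handled, which is not given in the sources used here. Stretches of 36 bases that occur more than once in the genome made up a median of 0% and a mean of 4.70% of a receptor window. The mean was 3.54% on V and 6.62% on the other chromosomes, and 4 windows of 267, 1 of them on V, were repeated over more than 50 percent of their length. None of those 4 had a thresholded peak.

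The thresholded peaks at receptor genes were 30 summits, 2 of them at nhr-80. Their signal, the peak caller's strength of a region, ran from 35.1 to 184.5 with a median of 56.0, close to the median of 53.9 for the 1426 other thresholded summits in windows of coding genes. Of the 30, 27 lay upstream of the 5′ end, all outside the annotated transcripts of coding genes. The remaining 3, at nhr-21, nhr-104 and nhr-131, lay in an exon of the gene. The median position was 299 bp upstream, and 12 summits lay within 150 bp of the 5′ end. No gene for a tRNA, snRNA, snoRNA or rRNA lay within 100 bp of any of these peaks. Only the receptor held the summit in its window at 24 of the 30 (80%), beside 69.1% of the other summits in windows that lay in the window of a single coding gene.

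**Figure D2:**
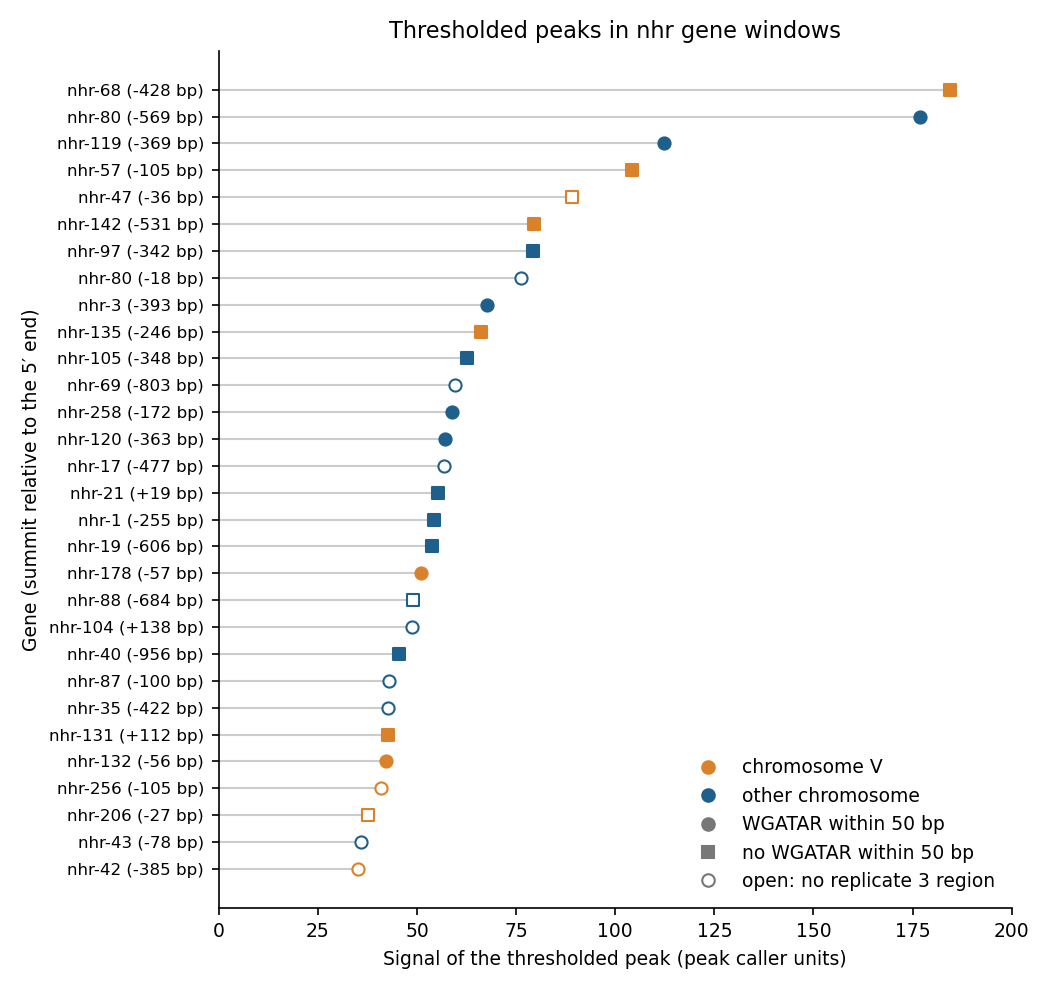
Signal of the 30 thresholded peaks in receptor gene windows, 1 line per summit, with the summit position relative to the 5′ end of the gene. Colour gives chromosome V or another chromosome, shape the presence of WGATAR within 50 bp, and open symbols the lack of an overlapping replicate 3 region. The 2 highest, at nhr-68 (184.5) and nhr-80 (176.9), stand well above the rest, which lie at or below 112.3.

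The 2 strongest peaks in 5′ windows lay at nhr-68 and nhr-80, both receptors of metabolism. The higher lay 428 bp upstream of nhr-68 (WBGene00003658, chromosome V, 11573440 to 11575709), which is needed for the expression of the propionate shunt, a route that breaks down propionate when vitamin B12 is low. Its signal was 184.5, rank 69 of 2940, and the overlapping regions ranked 72 in replicate 1 (signal 171.8) and 994 in replicate 3 (7.17). Both libraries therefore placed a region there, high in each list. The summit also lies in the window of the neighbouring gene H12C20.7. It held no WGATAR, but a GATAA preceded by C, shown in capitals above.

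The second was 569 bp upstream of nhr-80 (WBGene00003670, chromosome III, 11985 to 14869), a receptor needed for the synthesis of monounsaturated fatty acids. Its signal was 176.9, rank 81, and the region ranked 100 in replicate 1 (154.1) and 21 in replicate 3 (21.9). The replicate 3 region was the strongest of that list in a 5′ window of a receptor gene. A weaker summit, 18 bp upstream of the 5′ end, had a signal of 76.2 and no overlapping replicate 3 region. Both summits also lie in the window of H10E21.1, and they held 2 and 1 WGATAR sites. The third metabolic receptor with a peak in its 5′ window was nhr-69, one of the members related to HNF4, on chromosome I. Its summit was 803 bp upstream, with a signal of 59.6, rank 1190, no region in replicate 3 and 1 WGATAR.

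In their 5′ windows the other metabolic receptors had weaker regions or none. Of the 11 listed, 3 had a thresholded peak there and 9 a pooled region. The pooled signal was 28.8 at nhr-114 (rank 3688), which acts in the response to low vitamin B12, and 27.1 at nhr-49 (rank 3972), a regulator of fat breakdown and desaturation. It was 22.2 at nhr-13 (rank 4940), 14.3 at nhr-62, 13.8 at nhr-64 and 12.6 at nhr-10, the partner of nhr-68 in the propionate shunt. No pooled summit lay in the windows of nhr-66 or nhr-76. Outside its window, nhr-62 held a thresholded summit in an intron (57.2, rank 1269). At nhr-114 the replicate 3 list held a region of rank 1485, one of the 2940 strongest of that list.

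Among receptors of toxin, oxygen and pathogen responses, 1 of 7 had a thresholded peak in its 5′ window. That was nhr-57 (WBGene00003647, chromosome V, 4131889 to 4135102), a gene induced in low oxygen by the hypoxia factor. The summit lay 105 bp upstream with a signal of 104.2, rank 336, and the regions ranked 366 in replicate 1 (95.3) and 404 in replicate 3 (9.01), so the libraries gave it a similar place. Neither WGATAR nor GATAA lay within 50 bp of it. In the pooled list the window of nhr-14 had a signal of 18.4 (rank 6144) and that of nhr-86, which responds to a bacterial metabolite, 8.08 (rank 19910). Outside its window, nhr-14 held a thresholded summit in an intron (165.4, rank 94). At nhr-8, a receptor of xenobiotic and sterol responses, nhr-45 and nhr-176, the last needed for the breakdown of a fungicide, replicate 3 was the only list with a region, at ranks of 13385, 14251 and 13939. No list held one at nhr-112.

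Receptors of development and those conserved across animals had, between them, 1 gene with a thresholded peak in its 5′ window. Of 6 developmental members, only nhr-40 (WBGene00003630, chromosome X), needed for embryonic and early larval development, had one, 956 bp upstream with a signal of 45.5, rank 1945. That region ranked 2048 in replicate 1 and overlapped one of rank 10943 in replicate 3. Its summit lies also in the window of another coding gene, T03G6.7. The replicate 3 list held a stronger region at nhr-40, of rank 553, 239 bp upstream. None of the 8 conserved members had a thresholded peak in the 5′ window, and 2 of the 8 had a pooled region there. These were nhr-48, at 30.4 (rank 3436), and nhr-85, at 21.6 (rank 5103), a counterpart of insect E75 that helps to time larval development. Outside its window, nhr-85 held thresholded summits of 55.6 and 50.3 in introns. Among the developmental members nhr-2 had a pooled signal of 9.38 (rank 15907), and nhr-60 had no summit in any list. No list held a summit at nhr-6, nhr-41, nhr-67 or nhr-111, and nhr-91 had only weak regions in the single libraries. Some genes stand in more than 1 of these role lists. Over all 28 genes of the lists, 5 had a thresholded peak in the 5′ window (17.9%) and 16 a pooled region (57.1%). All 267 receptors stood at 10.9% and 46.1%, and the other coding genes at 9.38% and 41.5%. Among other coding genes with a name, 11.8% had a thresholded peak. The 28 genes are few, their lists were drawn up with earlier results of these data known, and the difference was not tested. The single lists hold 6 to 11 genes each, too few to set against those shares.

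Of the members outside the role lists, nhr-119 on chromosome II had the highest signal in a 5′ window. The summit was 369 bp upstream with a signal of 112.3, rank 270, and the regions ranked 342 in replicate 1 (98.6) and 67 in replicate 3 (14.3). It held 2 WGATAR sites, the nearer with its centre 12.5 bp from the summit. On chromosome V, nhr-178 had a summit 57 bp upstream with a signal of 50.98, rank 1603. It stood out for its place in replicate 3, rank 152 (11.6), against 2214 in replicate 1 (39.9). The peak at nhr-47, 36 bp upstream, had a signal of 89.0, rank 487, and lies also in the window of dnj-19, a chaperone gene. It ranked 439 in replicate 1 and had no region in replicate 3. At nhr-142 the signal was 79.4 (rank 645) with ranks of 829 and 312 in the 2 libraries, and the summit, 531 bp upstream, lies also in the window of F44E7.9.

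On chromosome IV the highest signal in a 5′ window was at nhr-97 (79.3, rank 648, 342 bp upstream), with ranks of 677 in replicate 1 and 7136 in replicate 3. At nhr-105 the signal was 62.5 (rank 1093), with ranks of 1013 and 1524, and at nhr-258 58.8 (rank 1215), with 1042 and 12435. The peaks at nhr-104 (48.7), nhr-87 (42.96) and nhr-43 (35.9) had no region in replicate 3. On X, nhr-3 had 67.6 (rank 905, 393 bp upstream), with ranks of 1257 and 274, so it stood higher in replicate 3. At nhr-120 the signal was 57.2 and at nhr-1 54.2, both with a replicate 3 region, of ranks 11342 and 5951. The peaks at nhr-17 (56.8) and nhr-35 (42.8) had none.

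The remaining peaks lay on II and V. On II, nhr-21 had 55.3 with its summit 19 bp inside the gene, and nhr-19 had 53.7 and nhr-88 48.9, at 606 and 684 bp upstream. The replicate 3 regions at nhr-21 and nhr-19 ranked 1799 and 21774, and nhr-88 had none. On V the signal was 66.1 at nhr-135, 42.7 at nhr-131 and 42.1 at nhr-132, each with a replicate 3 region, of ranks 9870, 18684 and 17536. It was 40.9 at nhr-256, 37.5 at nhr-206 and 35.1 at nhr-42, none with such a region. The threshold fell between nhr-42 (35.1, rank 2818) and the receptor genes just below it, nhr-27 (31.98, rank 3211), nhr-48 (30.4, rank 3436) and nhr-212 (30.3, rank 3453). Next came nhr-79 (30.03, rank 3502) and nhr-184 (29.7, rank 3557).

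**Figure D3:**
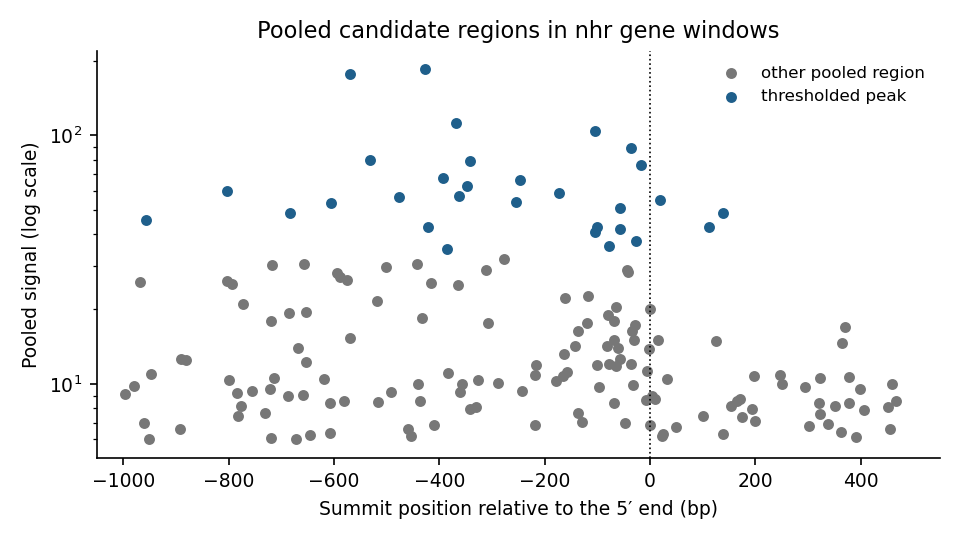
Signal (log scale) of pooled candidate regions against summit position relative to the 5′ end of the receptor gene, for the 171 pairs of gene and summit. Thresholded peaks reach from 956 bp upstream to 138 bp downstream, and in 128 of the 171 pairs (74.9%) the summit lies upstream, beside 76.4% for other coding genes.

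Of 7 nuclear receptor genes outside the members, 2 had a thresholded peak, nhr-23 (36.8, rank 2643) and nhr-25 (40.2, rank 2361), both regulators of molting. At nhr-23 the replicate 3 list held a region of rank 569. No list held a summit at daf-12, a steroid receptor that controls dauer formation, at sex-1, which takes part in sex determination, or at fax-1 and odr-7, which act in neurons. The neuronal gene unc-55 had a weak region in replicate 1 only, of rank 26611.

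Several receptor genes held strong peaks inside the gene, outside the window at the 5′ end. In 14 of the 267 (5.24%, interval 2.90 to 8.64) a thresholded summit lay in the gene more than 500 bp past its 5′ end, beside 2.86% of the other coding genes. All 14 lay away from chromosome V, where they made up 14 of 100 (14%, interval 7.87 to 22.4; other genes 3.18%). On V it was 0 of 167, with an upper bound of 2.18% and a share of 1.86% in other genes of V. Away from V gene length differed in the same direction, with a median of 3036 bp for receptors and 2155 bp for other genes. On V the medians were 2146 bp for receptors and 1718 bp for other genes. Among genes over 5000 bp away from V, 11 of 28 receptors had such a summit (39.3%) and 10.5% of other genes. On V it was 0 of 8 receptors over that length and 10.3% of other genes. The part of gene length in this was not tested beyond that split, whose limit was set after the counts were known.

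The 14 genes held 21 such summits, all in introns, and 17 of the 21 overlapped a replicate 3 region. The highest lay in nhr-31 (218.3, rank 45, 981 bp past the 5′ end), which is needed for growth of the excretory canal. It was stronger than any peak in a 5′ window of the family and overlapped a replicate 3 region of rank 527. Next came nhr-19 (180.5, rank 72, replicate 3 rank 148) and nhr-14 (165.4, rank 94, replicate 3 rank 2180). None of these 3 summits held WGATAR. In nhr-27, a gene of 102756 bp on X, 2 summits lay 46706 and 48448 bp past the 5′ end, with signals of 50.1 and 56.8, and the first of these lies in the window of another gene, cept-1. The heterochronic gene nhr-85, with no thresholded peak in its 5′ window, held 2 in introns (55.6 and 50.3), each with 1 WGATAR. Other receptors with intronic summits included nhr-34 with 3 (81.6, 66.4 and 42.7), nhr-3 (93.5), nhr-21 (79.9), nhr-62 (57.2), nhr-46 (45.2) and nhr-137 (40.4). In 2 genes, nhr-34 and nhr-85, an intronic summit fell in the window of another annotated start of the same gene. Of the 14 genes 8 had no thresholded peak in the 5′ window, so 37 of the 267 had one in either place.

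The libraries shared part of the receptor peaks. All 30 summits overlapped a replicate 1 region and 18 a replicate 3 region (60%, interval 40.6 to 77.3), beside 58.3% of the other thresholded summits in gene windows. In 9 of the 30 the overlapping region was one of the 2940 strongest of replicate 3. Of the receptor genes, 59 had a summit in both libraries' lists, which is 46.1% of those with one in replicate 1 and 67.05% of those with one in replicate 3. For other coding genes these shares were 46.0% and 53.8%. Across the 59 genes, Spearman's rho between the best ranks in the 2 lists was 0.50, a description over genes that share libraries. Replicate 3 also placed 4 receptors without a thresholded peak among its 2940 strongest regions. These were nhr-22 (rank 724), nhr-38 (1413), nhr-114 (1485) and nhr-116 (1630), and nhr-38 had no summit in either of the other lists.

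**Figure D4:**
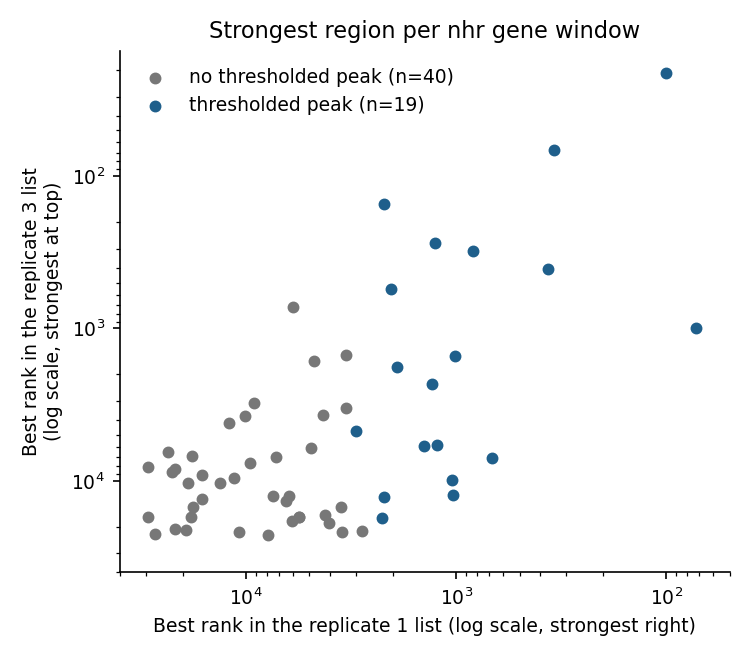
Best rank of a region in the window of each receptor gene in the replicate 1 list (horizontal) and the replicate 3 list (vertical), both on log scales with the strongest to the right and at the top, for the 59 genes with a summit in both. The regions of a gene need not lie at the same site. The 19 genes with a thresholded peak lie to the right, and in replicate 3 they spread from rank 21 to beyond 10000.

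GATA sites were present at 16 of the 30 thresholded summits of receptor genes. That is 53.3% (interval 34.3 to 71.7), against 30% of 60 windows of the same length centred 500 bp to either side. For the 1426 other thresholded summits in gene windows the share was 27.8% (interval 25.5 to 30.2), against 19.8% in flanks, and for all 2916 nuclear summits it was 34.8%. These differences were not tested. On V 4 of 11 receptor summits had a site (36.4%) and elsewhere 12 of 19 (63.2%). At 7 summits 2 sites lay together, among them nhr-80, nhr-119, nhr-178, nhr-132 and nhr-43 as printed above. The median distance from the summit to the nearest site centre was 23.5 bp, with 2.5 bp at nhr-42 and 5.5 bp at nhr-132. Of the 14 summits without WGATAR, 4 held GATAA with another flanking letter, as at nhr-68.

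Peaks with and without a region in replicate 3 differed in their share of sites, though not beyond their intervals. Of the 18 summits with a replicate 3 region, 7 held WGATAR (38.9%, interval 17.3 to 64.3; flanks 36.1%), and of the 12 without, 9 did (75%, interval 42.8 to 94.5; flanks 20.8%). The median signal was 60.7 in the first set and 45.8 in the second. A run of GAGAGA, on either strand, lay within 50 bp of 14 of the 30 summits (46.7%), against 15% of their flanks, and beside 20.97% of the other summits in gene windows. At 9 summits it occurred together with WGATAR, and at nhr-43 it was part of a long run of CT repeats, visible at the end of the sequence above. At 9 summits neither was found, nhr-57 and nhr-68 included.

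**Figure D5:**
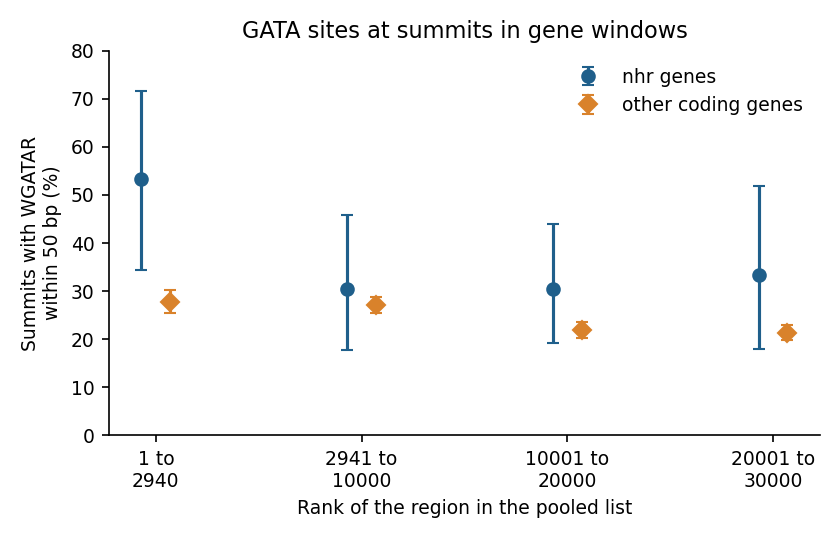
Percent of summits in gene windows with WGATAR within 50 bp, by the rank of the region in the pooled list, for receptor genes (circles) and other coding genes (diamonds), with exact binomial 95% intervals over summits. Receptors stand at 53.3% among ranks 1 to 2940 and between 30.4% and 33.3% in the weaker classes.

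Weaker regions at receptor genes held sites at a lower share than the thresholded ones, though the interval of each weaker class overlapped theirs (34.3 to 71.7). Among pooled ranks 2941 to 10000 the share was 14 of 46 (30.4%, interval 17.7 to 45.8, other genes 27.1%). Among 10001 to 20000 it was 18 of 59 (30.5%, interval 19.2 to 43.9, other genes 21.9%). Among 20001 to 30000 it was 11 of 33 (33.3%, interval 17.96 to 51.8, other genes 21.4%). The number of WGATAR sites in the whole window of 1501 bp was similar for receptors and other genes, with means of 3.87 ± 2.26 (SD, n = 267 genes) and 3.80 ± 2.21 (SD, n = 19706). Receptors with a thresholded peak had 5.10 ± 1.86 sites (SD, n = 29) and those without 3.71 ± 2.26 (SD, n = 238). At least 1 site was present in the window of 95.1% of the receptor genes and 96.1% of the other coding genes, so most windows with a site had no thresholded peak.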

How the data were processed

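The deposited lists in build ce11 were used: the thresholded peaks, the regions called on both libraries pooled, and those of replicates 1 and 3. Per the deposited manifest, each candidate list came from alignments and a shared control, and the thresholded list from the other 3. Neither the labels nor the manifest name an aligner, a peak caller or a filter. The deposited signal is the peak caller's strength per region. Its scale differs between lists, so lists were compared by rank. The deposited −log10 q-value was not used in any result. No per-sample column was left unmapped (0).

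Genes came from Ensembl release 115 on WBcel235, which is ce11, and sequence from the RefSeq copy of that assembly. A summit is the region's start plus its offset and may count for several genes. Regions overlap from 1 bp. Shares carry exact binomial (Clopper-Pearson) 95% intervals, which cover counting only. With 1 group of 2 libraries, no p-value was computed. Named genes were all members with a thresholded peak, the 5 next by pooled signal, the role lists and other nuclear receptors. Genes with intronic peaks, such as nhr-31 and nhr-34, and nhr-22, nhr-38 and nhr-116, were named after their values were seen. Members and lists were chosen with earlier results of these data known. Python 3.11.15, numpy 2.4.6, pandas 2.3.3, scipy 1.17.1 and matplotlib 3.10.9 were used. Assignment was tested on planted summits, with 200 of 200 placed as planted, and site counts in 100 of 100 windows.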

Additional observations from a re-analysis of the deposited data

How the results depend on the processing

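Of the alternatives, the windows of 500 bp upstream to 250 bp downstream and of 2000 bp upstream, any overlap of the region with the window, and the nearest 5′ end alone each left the counts of receptor genes with a peak within 1.5 times the main values. The strongest 1470 thresholded peaks gave 17 receptor genes, 5 of them on V (2.99%, other genes 3.17%) and 12 elsewhere (12%, other genes 5.58%). Leaving out replicate 1 or replicate 3, with the 2940 strongest regions of the other list, gave 15 to 28 receptor genes, 6 to 10 on V and 9 to 18 elsewhere. The low values are those of replicate 3 alone, with 5.62% of receptors and 5.88% of other genes, and away from V 9% and 6.49%. For pooled regions the range was 88 to 128. Keeping only peaks with a region in each library's list, chosen after seeing the data, gave 18, of which 7 on V and 11 elsewhere (11%, other genes 6.07%). Against named genes alone, the background was 11.8%, above the receptors' 10.9%. WGATAR within 100 bp lay at 23 of 30 summits (76.7%, other summits 43.5%), GATAA at 16, and WGATAR at 35.1% of all pooled summits. No paired analysis was possible because both libraries belong to 1 group. Read depth, which is not known, limits what each list could hold.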
